A study of Homo sapiens with 33 samples.

Results

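RNA was compared between replicate 3 and replicate 2 of HepG2 cells that had been sorted by stage of the cell cycle. HepG2 is a human line derived from a hepatocellular carcinoma that still makes many plasma proteins of the liver. The 12 libraries compared were all the sorted RNA libraries of the series, chosen by the replicate number in their labels, of 33 samples in all: 6 fractions (G1, 4 consecutive fractions of S phase named S1 to S4, and G2), each with 1 library numbered 2 and 1 numbered 3. The other samples were 18 Repli-seq samples, not analysed here, and 3 bulk RNA libraries of unsorted cells. No label names a treatment, genotype or culture that separates the replicate numbers, and the cell line is the same in all. All 12 sorted libraries were made with a stranded total-RNA kit for very low input, and the labels give nuclear RNA as the molecule, while the bulk libraries were made with a stranded kit for polyadenylated mRNA. The comparison shows which gene functions differed between the sorted libraries of the same fraction that carry the numbers 3 and 2. No label says whether the 6 libraries of a number came from separate cultures or from 1 sorted culture, so p-values measure how regularly a difference recurred over the 6 fractions and may be technical.

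In hepatocytes, secretion of albumin, apolipoproteins, clotting factors and carrier proteins dominates the messenger RNA, and insulin, oxygen, iron and inflammatory signals each set the level of known groups of genes. Low oxygen stabilises HIF, a transcription factor that raises glycolytic enzymes and transporters. DNA damage and other stresses stabilise p53, which raises cell-cycle inhibitors and death receptors. Genes for DNA replication are driven by E2F factors and genes for mitosis by the MuvB and FOXM1 complexes, so their levels normally follow the stage of the cycle. BMP, TGF-beta and YAP signals, heat shock factor and the metal-sensing factor MTF1 each raise small groups of well-known targets.

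Levels below are TPM, a transcript abundance corrected for gene length, rescaled so that protein-coding genes sum to 1000000 in each library, and differences are log2(level in replicate 3 + 1) minus log2(level in replicate 2 + 1), paired by fraction. They were tested over 10665 protein-coding genes with a mean level of at least 5, with limma and Benjamini-Hochberg adjustment, and a gene was called at an adjusted p under 0.05.

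The composition of the libraries moved with the replicate number. The 13 mRNAs encoded by mitochondrial DNA made up 20.3 to 30.1% of protein-coding TPM in the 6 replicate 2 libraries and 4.28 to 20.5% in the 6 replicate 3 libraries. Of recovered protein-coding reads, not corrected for gene length, they made up 4.22 to 6.94% in replicate 2 and 0.754 to 4.19% in replicate 3. Short noncoding RNAs made up 55.6 to 66.97% of all TPM in replicate 2 and 69.9 to 78.99% in replicate 3. MALAT1, an abundant nuclear long noncoding RNA, stood at 6801 to 11159 in replicate 2 and 16714 to 28284 in replicate 3, whereas NEAT1, the scaffold RNA of paraspeckles, stood at 625 to 1288 and 347 to 521. In each of these measures every fraction shifted in the same direction, with an exact paired sign-flip test at its two-sided minimum of p = 0.0313 and an adjusted p = 0.071 over 25 library measures. Reads recovered from the TPM steps came to 6129030 to 8989600 per library in replicate 2 and 6205400 to 18485400 in replicate 3, where S4 was the deepest. The 13 hepatocyte markers summed to 51653 to 61185 in replicate 2 and 29394 to 43439.8 in replicate 3. All 13 were above 0 in every library, but APOB, which encodes the main protein of low-density lipoprotein, lay at only 0.357 to 1.64. Markers of other cells were compared in the same way. The 11 leukocyte markers summed to 1992 to 2403 in replicate 2 and 1156 to 1437 in replicate 3, nearly all of it LYZ (1139.6 to 2389), while PTPRC, which defines leukocytes, was at 0 in 9 of 12 libraries. The 10 fibroblast and stellate markers summed to 22.3 to 41.7 and 23.5 to 27.2, with COL3A1 at 0 in 9 libraries and LUM in 10. The 9 endothelial markers summed to 12.9 to 21.3 and 8.09 to 22.3. Of the 7 erythroid markers HBA1 and HBA2 were at 0 in all 12. The part of library composition in the gene differences was tested only through the alternative scalings given beside them. Each library is a pool of cells, so fewer cells with a transcript and less transcript per cell cannot be told apart.

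**Figure D1:**
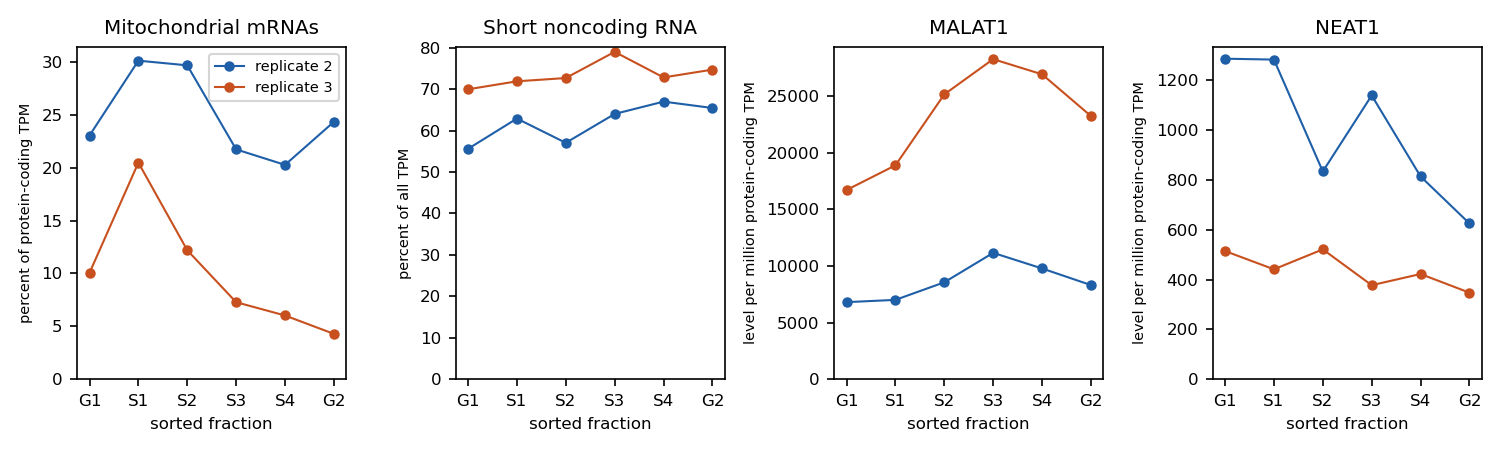
Mitochondrial mRNAs (percent of protein-coding TPM), short noncoding RNA (percent of all TPM), MALAT1 and NEAT1 (level on the protein-coding scale) in the 6 sorted fractions on the x axis, one point per library, blue for replicate 2 and orange for replicate 3. Replicate 3 lay below replicate 2 in every fraction for mitochondrial mRNAs and NEAT1 and above it in every fraction for short noncoding RNA and MALAT1.

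Most protein-coding genes were higher in replicate 3 on this scale. Of 10665 genes, 6915 were called higher (64.8%) and 844 lower (7.91%). At least 2-fold and with no overlap between the 6 libraries of each number, 744 were called higher (6.98%) and 126 lower (1.18%). The median difference of all genes was 0.47, with quartiles of 0.16 and 0.74, and by fraction it was 0.39 in G1, 0.37 in S1, 0.59 in S2, 0.41 in S3, 0.41 in S4 and 0.55 in G2. The upward shift depended on the scaling: after scaling by the median of ratios to a common reference, the median came to 0.02, a shift of 0.44, and 2665 genes were called higher (25%) and 2620 lower (24.6%). Called genes were thus higher in 89.1% of cases on the protein-coding scale and in 50.4% after median-ratio scaling. All 844 genes called lower and 2665 of those called higher kept their call and direction in both scalings, while 155 turned from higher to lower. Median-ratio scaling lowered most differences by a like amount, so that genes called lower kept their call follows largely from this shift. It is no separate support for them. Groups of genes below are therefore given in both scalings and are read beside the medians of all genes, 0.47 and 0.02. Their counts of calls are read beside the shares of all genes called, 64.8% higher and 7.91% lower, or 25% and 24.6% after median-ratio scaling.

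On the protein-coding scale, for most genes the replicate number went with more of the spread than the stage of the cycle. The shares and differences in this paragraph are given on that scale only. They include the upward shift shared by most genes, with a median of 0.47, which came to 0.02 after median-ratio scaling. At the median gene, 53.4% of the variance among the 12 libraries went with the replicate number and 28.6% with the fraction, and the first share was larger in 6731 genes (63.1%). The median absolute difference was 0.52 between the sorted libraries of the 2 numbers and 0.11 between bulk replicates 3 and 2, single libraries of another kit that were fitted to no test. At least 2-fold apart were 1084 genes in the sorted libraries and 53 in the bulk pair.

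**Figure D2:**
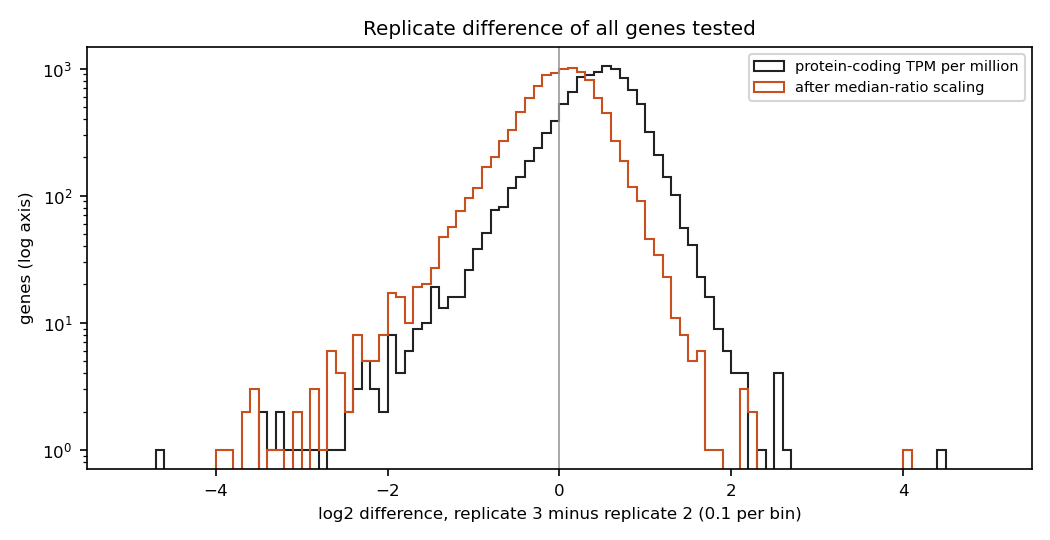
Number of genes (log axis) by the log2 difference between replicate 3 and replicate 2, over all 10665 genes tested, on the protein-coding scale in black and after median-ratio scaling in orange. The black distribution is centred on 0.47 and the orange one on 0.02, and on the protein-coding scale the tails reach 4.41 at HAMP and -4.63 at IGFBP1.

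IGFBP1, which encodes a liver-secreted binder of insulin-like growth factors that insulin represses, showed the largest fall. Its level ran from 1924 to 2432 (median 2284) in replicate 2 and from 58.2 to 121 (median 94.1) in replicate 3, a difference of -4.63 (SE 0.11, adjusted p = 4.69e-11). The lowest replicate 2 library was thus far above the highest replicate 3 library, and the gene lay at 337 ± 8.89 (SD, n = 3) in bulk cells. G6PC1, the catalytic subunit of the glucose-6-phosphatase that releases glucose from liver, ran from 75.9 to 109 (median 92.3) in replicate 2 and from 6.02 to 10.4 (median 6.98) in replicate 3, a difference of -3.48 (SE 0.11, adjusted p = 5.01e-10). CHST15, a sulfotransferase that modifies chondroitin sulfate, ran from 51.2 to 84.5 (median 60.9) in replicate 2 and from 2.26 to 8.03 (median 5.52) in replicate 3, a difference of -3.41 (SE 0.16, adjusted p = 1.14e-08). LOX, the lysyl oxidase that crosslinks collagen, ran from 42.7 to 57.4 (median 47.7) in replicate 2 and from 2.38 to 5.93 (median 4.63) in replicate 3, a difference of -3.23 (SE 0.15, adjusted p = 1.15e-08). The groups did not overlap in any of these genes. HAL, the enzyme that begins histidine breakdown, ran from 95.2 to 157 (median 139) in replicate 2 and from 13.3 to 33.2 (median 19.9) in replicate 3, a difference of -2.60 (SE 0.17, adjusted p = 2.33e-07). SEC14L6, a member of a lipid-binding family, differed by -2.92 (SE 0.20, adjusted p = 3.17e-07). TUBB1, a tubulin isoform typical of platelets, differed by -2.81 (SE 0.20, adjusted p = 3.41e-07). PNCK, a calmodulin-dependent kinase, differed by -3.22 (SE 0.27, adjusted p = 1.01e-06). MUC5B, a gel-forming mucin, ran from 9.55 to 20.4 in replicate 2 and from 0.109 to 0.595 in replicate 3, a difference of -3.39 (SE 0.27, adjusted p = 7.35e-07), and was under 1 in all 6 replicate 3 libraries. In the bulk libraries, made with the other kit, mean levels were 118 for LOX and 23.7 for CHST15. They were 4.28 for TUBB1, 3.07 for PNCK, 3.06 for G6PC1, 2.41 for SEC14L6, 1.62 for HAL and 0.00988 for MUC5B.

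HAMP showed the largest rise. It encodes hepcidin, the liver hormone that limits iron export and that BMP and inflammatory signals raise. Its level ran from 1.16 to 5.96 (median 4.003) in replicate 2 and from 67.3 to 123 (median 91.3) in replicate 3, a difference of 4.41 (SE 0.23, adjusted p = 2.92e-08), and in bulk cells it was 8.55 ± 1.65 (SD, n = 3). ARRDC3, an arrestin-domain protein that sorts receptors, ran from 12.2 to 27.3 (median 20.6) in replicate 2 and from 124 to 141 (median 130.3) in replicate 3, a difference of 2.69 (SE 0.12, adjusted p = 8.78e-09). ZNF114, a zinc finger protein, ran from 4.96 to 10.96 (median 7.58) in replicate 2 and from 31.7 to 77.2 (median 53.04) in replicate 3, a difference of 2.59 (SE 0.14, adjusted p = 3.42e-08). In all 3 genes every replicate 3 library exceeded every replicate 2 library. CYP24A1, the enzyme that inactivates vitamin D, ran from 5.01 to 10.7 (median 5.55) in replicate 2 and from 27.6 to 58.96 (median 47.5) in replicate 3, a difference of 2.55 (SE 0.16, adjusted p = 1.09e-07). DKK1, a secreted inhibitor of Wnt signalling, ran from 47.1 to 58.1 (median 53.8) in replicate 2 and from 152 to 323 (median 274) in replicate 3, a difference of 2.13 (SE 0.15, adjusted p = 3.79e-07). IP6K3, an inositol hexakisphosphate kinase, and NT5DC4, a predicted nucleotidase, had lower levels. IP6K3 ran from 0 to 3.05 in replicate 2 and from 5.02 to 20.4 in replicate 3 and differed by 2.53 (SE 0.29, adjusted p = 7.41e-06). NT5DC4 ran from 2.18 to 5.92 in replicate 2 and from 17.9 to 31.4 in replicate 3 and differed by 2.18 (SE 0.17, adjusted p = 6.25e-07). HAMP lies on chromosome 19 at 35282528 to 35285143, IGFBP1 on chromosome 7 at 45888488 to 45893660 and G6PC1 on chromosome 17 at 42900799 to 42914438 (GRCh38, RefSeq), and each value covers the whole gene.

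**Figure D3:**
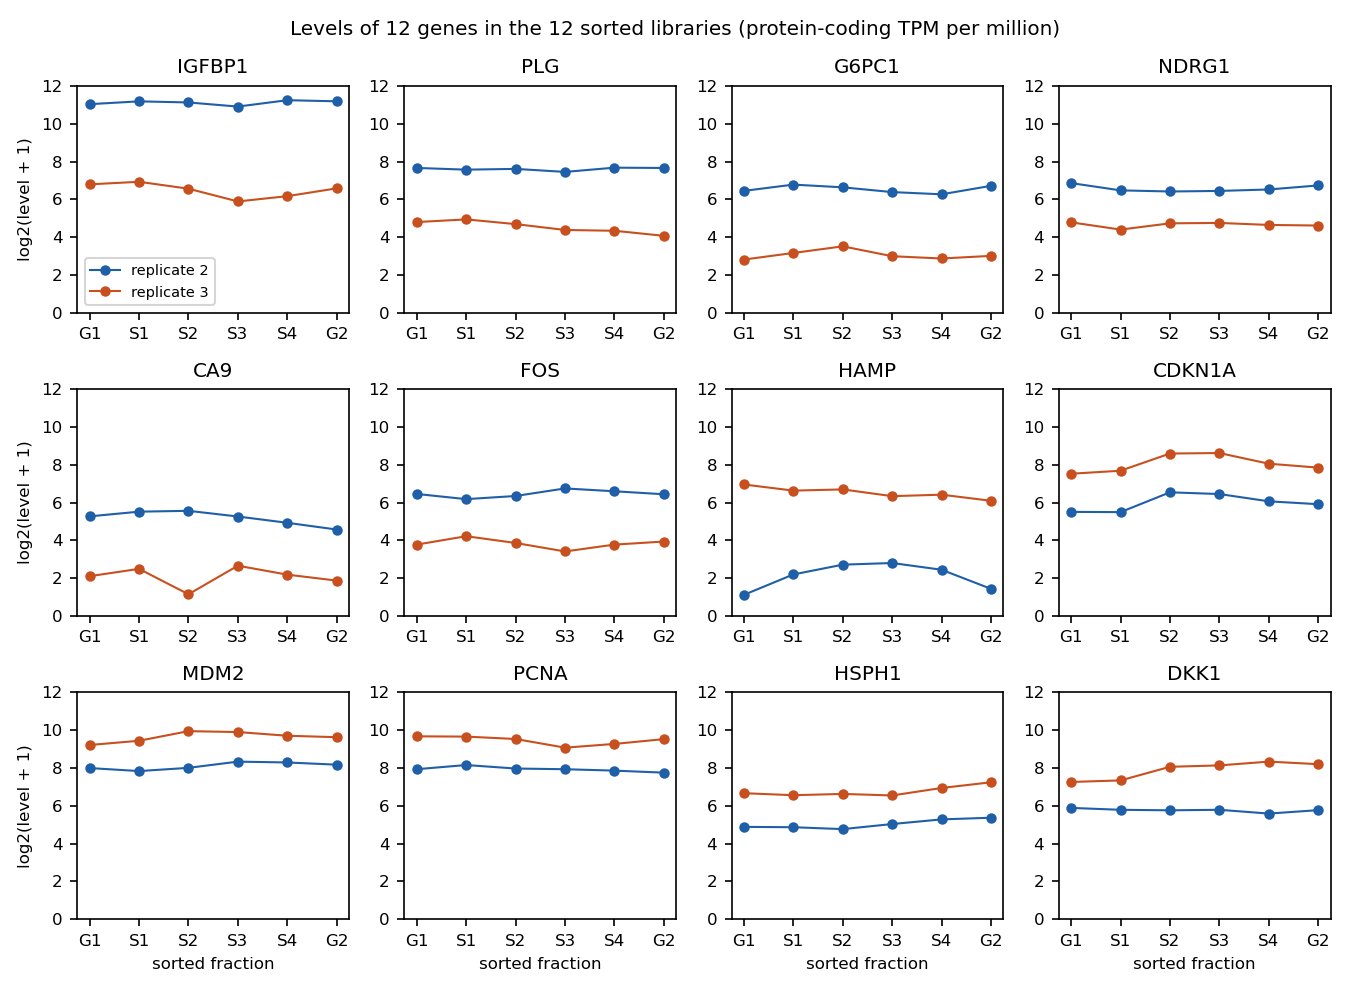
Log2(level + 1) of 12 genes (y axis, level on the protein-coding scale) in the 6 sorted fractions (x axis), one point per library, blue for replicate 2 and orange for replicate 3. IGFBP1, PLG, G6PC1, NDRG1, CA9 and FOS lay lower in replicate 3 in every fraction, and HAMP, CDKN1A, MDM2, PCNA, HSPH1 and DKK1 higher in every fraction, with no overlap between the numbers.

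Proteins that hepatocytes secrete were mostly lower in replicate 3. Of 58 listed genes, 46 were tested and 12 lay below the filter; 6 were called higher and 30 lower, with a median of -0.58, and after median-ratio scaling 3 were higher and 37 lower, with a median of -1.02. The list's median over a fraction's pair lay between -0.73 and -0.43 in the 6 fractions. ALB, which encodes albumin, ran from 21654 to 26853 (median 24359) in replicate 2 and from 10631 to 19381 (median 13328) in replicate 3, a difference of -0.82 (SE 0.14, adjusted p = 0.000155). AFP, alpha-fetoprotein, the fetal counterpart of albumin, ran from 12117 to 13516 (median 12910.3) in replicate 2 and from 6151 to 8444 (median 7721) in replicate 3, a difference of -0.78 (SE 0.11, adjusted p = 5.2e-05). Neither overlapped between the numbers, although quantile normalization turned the sign of both differences. AHSG, the carrier protein fetuin-A, ran from 5890.4 to 7391 (median 7208) in replicate 2 and from 2247 to 3569 (median 2522) in replicate 3, a difference of -1.35 (SE 0.11, adjusted p = 6.72e-07). PLG, which encodes plasminogen, the precursor of the clot-dissolving enzyme, ran from 174 to 204 (median 198) in replicate 2 and from 15.8 to 29.6 (median 22.3) in replicate 3, a difference of -3.07 (SE 0.12, adjusted p = 2.16e-09). In the bulk libraries, made with the other kit, PLG lay at only 0.041 ± 0.033 (SD, n = 3). ITIH3, an inter-alpha-trypsin inhibitor heavy chain that binds hyaluronan, ran from 531 to 837 (median 755) in replicate 2 and from 151 to 253 (median 166) in replicate 3, a difference of -1.98 (SE 0.09, adjusted p = 8.78e-09). The copper carrier CP differed by -1.83 ± 0.09 (SE) and the iron carrier TF by -1.37 ± 0.09 (SE). HP, haptoglobin, which binds free haemoglobin, moved the other way and ran from 40.1 to 53.9 (median 46.9) in replicate 2 and from 80.5 to 139 (median 104) in replicate 3, a difference of 1.13 (SE 0.11, adjusted p = 2.77e-06), and the complement component C5 also rose, by 1.09 ± 0.09 (SE).

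Apolipoproteins and lipoprotein-handling genes followed in part. Of 20 listed genes 17 were tested, 4 were called higher and 9 lower, with a median of -0.32, and after median-ratio scaling none was higher and 12 were lower, with a median of -0.78. APOA1, the main protein of high-density lipoprotein, ran from 7754 to 11100.3 (median 8739) in replicate 2 and from 5755 to 8141 (median 6080.3) in replicate 3, and its groups overlapped, with a difference of -0.45 (SE 0.12, adjusted p = 0.00443). APOA2, its partner in these particles, differed by -0.51 (SE 0.09, adjusted p = 0.000356), and APOC3, an inhibitor of triglyceride clearance, by -0.83 (SE 0.10, adjusted p = 1.19e-05). APOH, beta-2-glycoprotein, ran from 3939 to 4824 (median 4464) in replicate 2 and from 3046 to 4256 (median 3523) in replicate 3, a difference of -0.34 (SE 0.09, adjusted p = 0.00498). Quantile normalization turned the sign of all 3 of APOA1, APOA2 and APOH. APOM, a carrier of sphingosine-1-phosphate, ran from 14.8 to 71.2 (median 23.3) in replicate 2 and from 4.96 to 16.4 (median 6.84) in replicate 3, a difference of -1.63 (SE 0.26, adjusted p = 0.000102). TM6SF2, needed to load triglyceride onto lipoproteins, was called higher, by 0.80 (SE 0.29, adjusted p = 0.0229), with overlapping groups.

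Liver transcription factors split in direction. Of 28 listed, 27 were tested, 10 were called higher and 4 lower, with a median of 0.04, and after median-ratio scaling 7 were higher and 14 lower, with a median of -0.34. Differences over the list ran from -0.85 to 1.19. The 4 members called lower are not named here, so the rises named below do not stand for the list. HNF4A, the nuclear receptor that maintains hepatocyte identity, ran from 216 to 437 in replicate 2 and from 227 to 316 in replicate 3, a difference of -0.15 (SE 0.10, adjusted p = 0.175) and of -0.61 after median-ratio scaling, where it was called lower. NR1H4, the bile acid receptor FXR, ran from 64.5 to 147 (median 114) in replicate 2 and from 194 to 281 (median 231) in replicate 3, a difference of 1.12 (SE 0.10, adjusted p = 1.35e-06). NR1I2, the drug-sensing receptor PXR, differed by 1.13 (SE 0.11, adjusted p = 3.25e-06), the pioneer factor FOXA1 by 1.19 (SE 0.08, adjusted p = 2.59e-07), and CEBPA, a leucine zipper factor of mature hepatocytes, by 0.99 (SE 0.11, adjusted p = 6.99e-06). XBP1, which drives secretory capacity, differed by 0.70 (SE 0.08, adjusted p = 8.58e-06).

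Glycolytic enzymes and targets of HIF were lower in replicate 3. Of 37 listed genes, 33 were tested; 2 were called higher and 28 lower, with a median of -0.60, and after median-ratio scaling none was higher and 29 were lower, with a median of -1.05. By fraction the list's paired median ran from -0.71 to -0.43. CA9, carbonic anhydrase IX, a membrane enzyme strongly raised by low oxygen, ran from 22.8 to 46.2 (median 37.4) in replicate 2 and from 1.21 to 5.30 (median 3.41) in replicate 3, a difference of -3.11 (SE 0.22, adjusted p = 3.29e-07). NDRG1, a stress-responsive gene that low oxygen raises, ran from 84.3 to 115 (median 89.4) in replicate 2 and from 20.1 to 26.5 (median 24.8) in replicate 3, a difference of -1.92 (SE 0.10, adjusted p = 1.96e-08). BNIP3L, a receptor for the removal of mitochondria, ran from 41.1 to 64.7 (median 49.1) in replicate 2 and from 9.91 to 23.2 (median 12.4) in replicate 3, a difference of -1.85 (SE 0.13, adjusted p = 3.05e-07). No library of replicate 3 reached the lowest of replicate 2 in these genes. Among regulators of glucose use, PFKFB4, which sets the level of an activator of glycolysis, differed by -1.68 ± 0.11 (SE), the pyruvate dehydrogenase kinase PDK1 by -1.25 ± 0.09 (SE), and EGLN3, an oxygen sensor that marks HIF for destruction, by -1.61 ± 0.34 (SE). The enzymes themselves moved less. ENO1, enolase, ran from 653 to 835 (median 740.1) in replicate 2 and from 360.1 to 451 (median 425) in replicate 3, a difference of -0.84 (SE 0.07, adjusted p = 8.37e-07). TPI1, triosephosphate isomerase, ran from 406 to 521 (median 479.6) in replicate 2 and from 251 to 326 (median 323) in replicate 3, a difference of -0.63 (SE 0.07, adjusted p = 6.24e-06). GAPDH, often used as a reference gene, ran from 955 to 1067 (median 994) in replicate 2 and from 658 to 850.1 (median 769) in replicate 3, a difference of -0.41 (SE 0.08, adjusted p = 0.000492). The 2 genes called higher, ENO2, the neuronal enolase, and ADM, adrenomedullin, differed by 0.52 ± 0.09 (SE) and 0.55 ± 0.12 (SE), and neither stayed higher after median-ratio scaling.

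Promoters were read as the 250 bases before the 1 start per gene that RefSeq's table gives (GRCh38.p14), which 8847 of the 10665 tested genes had, and searched for short motifs known to bind the factors named above; a match is a description and no evidence of binding. The hypoxia response core ACGTG was searched on both strands and was present in 13 of 28 promoters of the glycolysis and hypoxia list (46.4%), in 23.96% of all 8847, and in 25 of 91 promoters of genes at least 2-fold lower without overlap (27.5%). CA9 is shown because it fell most in the list and carries the core, in capitals, 1 time, on chromosome 9, plus strand, written as chr9:35673678-35673927.
CA9: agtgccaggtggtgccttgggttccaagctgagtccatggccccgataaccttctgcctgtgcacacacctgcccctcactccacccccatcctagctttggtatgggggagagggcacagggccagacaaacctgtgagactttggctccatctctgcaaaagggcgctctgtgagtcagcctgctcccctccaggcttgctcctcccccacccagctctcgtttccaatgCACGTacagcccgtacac

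Targets of p53, which is not mutated in HepG2, were higher in replicate 3. Of 30 listed genes 28 were tested; 25 were called higher and none lower, with a median of 0.99, 11 of them at least 2-fold without overlap, and after median-ratio scaling 22 were higher and 3 lower, with a median of 0.55. The paired median varied little with the fraction, from 0.85 to 1.12. CDKN1A, the cell-cycle inhibitor p21, ran from 44.02 to 92.2 (median 62.6) in replicate 2 and from 183 to 393 (median 247) in replicate 3, a difference of 2.06 (SE 0.07, adjusted p = 1.32e-09). MDM2, the ligase that degrades p53, ran from 228 to 322 (median 272) in replicate 2 and from 594 to 988 (median 813) in replicate 3, a difference of 1.53 (SE 0.09, adjusted p = 7.82e-08). BTG2, an antiproliferative cofactor of mRNA decay, ran from 13.4 to 28.4 (median 19.8) in replicate 2 and from 62.6 to 107 (median 85.2) in replicate 3, a difference of 2.02 (SE 0.13, adjusted p = 2.33e-07). All 6 libraries of replicate 3 lay above all 6 of replicate 2 in these genes. FAS, a death receptor, ran from 2.66 to 4.74 (median 3.31) in replicate 2 and from 12.4 to 18.4 (median 14.4) in replicate 3, a difference of 1.80 (SE 0.18, adjusted p = 2.68e-06). TP53I3, a quinone oxidoreductase, differed by 1.75 (SE 0.10, adjusted p = 7.82e-08) and the ferredoxin reductase FDXR by 1.68 (SE 0.09, adjusted p = 3.79e-08). TNFRSF10B, another death receptor, ran from 264 to 335 (median 306) in replicate 2 and from 329 to 469 (median 416) in replicate 3, a difference of 0.41 (SE 0.07, adjusted p = 0.000126) that came to -0.04 after median-ratio scaling. The 3 members not called were BBC3, a mediator of cell death, at -0.31 ± 0.17 (SE), FAM210B, a mitochondrial protein, at 0.13 ± 0.08 (SE), and the stress cytokine GDF15 at 0.14 ± 0.09 (SE), with a sign that turned after median-ratio scaling.

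Genes of DNA replication, DNA repair and mitosis had positive paired medians in all 6 fractions. For G2/M genes the S3 value, 0.19, lay below the S3 median of all genes, 0.41. Of 50 listed G1/S genes, 49 were tested and all 49 were called higher, with a median of 0.99, and after median-ratio scaling 37 were higher and none lower, with a median of 0.55. PCNA, the sliding clamp of the replication fork, ran from 215 to 284 (median 244) in replicate 2 and from 539 to 817 (median 739) in replicate 3, a difference of 1.52 (SE 0.09, adjusted p = 7.26e-08). MCM3, a subunit of the replicative helicase, ran from 388 to 457 (median 439.5) in replicate 2 and from 806 to 1231 (median 966) in replicate 3, a difference of 1.18 (SE 0.08, adjusted p = 2.22e-07). MCM7, another subunit, ran from 169.7 to 208 (median 197) in replicate 2 and from 288 to 408 (median 316) in replicate 3, a difference of 0.80 (SE 0.08, adjusted p = 3.52e-06). None of these overlapped between the numbers. MCM10, which activates the helicase, ran from 30.5 to 49.6 (median 38.7) in replicate 2 and from 98.6 to 152 (median 119.8) in replicate 3, a difference of 1.67 (SE 0.12, adjusted p = 3.05e-07), and CDC6, which loads it, ran from 73.8 to 96.1 (median 84.6) in replicate 2 and from 191 to 286 (median 262) in replicate 3, a difference of 1.502 (SE 0.10, adjusted p = 2.59e-07). All 44 listed genes of DNA repair and recombination were tested; 40 were called higher and none lower, with a median of 0.98, and 30 were higher and none lower after median-ratio scaling, with a median of 0.53. EXO1, a nuclease that resects broken ends, ran from 20.5 to 45.6 (median 35.8) in replicate 2 and from 79.8 to 140.3 (median 90.04) in replicate 3, a difference of 1.51 (SE 0.13, adjusted p = 1.43e-06). RAD51AP1, a DNA-binding factor of homologous recombination, ran from 13.4 to 54.5 (median 35.3) in replicate 2 and from 75.3 to 125 (median 82.2) in replicate 3, a difference of 1.47 (SE 0.18, adjusted p = 1.19e-05). MRE11, the nuclease of the break-sensing complex, ran from 53.8 to 77.7 (median 63.8) in replicate 2 and from 120.1 to 147 (median 126) in replicate 3, a difference of 0.98 (SE 0.10, adjusted p = 3.77e-06). RAD51C, of the same repair pathway, differed by 1.43 (SE 0.13, adjusted p = 2.11e-06) and the translocase RAD54L by 1.09 (SE 0.11, adjusted p = 3.44e-06). FANCA, of the Fanconi anaemia core complex, differed less, by 0.47 (SE 0.08, adjusted p = 0.000132), and by 0.02 after median-ratio scaling.

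Mitotic genes had paired medians that were smallest in S3 and S4, a contrast between fractions that was not tested for the list. Of 60 listed G2/M genes 58 were tested; 56 were called higher and none lower, with a median of 1.04, but only 2 were at least 2-fold higher without overlap, and after median-ratio scaling 38 were higher and none lower, with a median of 0.59. The list's median log2(level + 1) in replicate 2 was 4.23 in G1, 4.85 in S1, 5.86 in S2, 6.97 in S3, 6.76 in S4 and 5.89 in G2. In replicate 3 it was 5.80, 6.20, 6.84, 7.21, 7.48 and 7.42 in the same order. The highest fraction was S3 in replicate 2 and S4 in replicate 3, the fraction labelled G2 stood below S3 and S4 in replicate 2, and the paired median difference was 1.56 in G1, 1.38 in S1, 1.03 in S2, 0.19 in S3, 0.71 in S4 and 1.40 in G2. CDK1, the kinase that drives mitosis, ran from 10.02 to 110.1 (median 59.9) in replicate 2 and from 75.3 to 276 (median 178) in replicate 3, a difference of 1.77 (SE 0.20, adjusted p = 6.72e-06), with overlapping groups although every pair was higher in replicate 3. KIF20B, a mitotic kinesin, ran from 29.7 to 106 (median 73.5) in replicate 2 and from 135 to 289.8 (median 222) in replicate 3, a difference of 1.69 (SE 0.13, adjusted p = 5.95e-07). SKA3, of the kinetochore complex that grips microtubules, ran from 8.34 to 63.2 (median 28.6) in replicate 2 and from 58.7 to 116 (median 71.01) in replicate 3, a difference of 1.65 (SE 0.19, adjusted p = 9.06e-06). TOP2A, the topoisomerase that untangles chromosomes, ran from 127 to 573 (median 268) in replicate 2 and from 207 to 812 (median 587) in replicate 3, a difference of 0.81 (SE 0.13, adjusted p = 9.12e-05). TPX2, a spindle assembly factor, differed by 0.88 (SE 0.13, adjusted p = 4.9e-05), and KIF22, a chromosome-arm kinesin, by 1.28 (SE 0.13, adjusted p = 4.24e-06). MKI67, the proliferation antigen Ki-67, was not called, at 0.18 (SE 0.14, adjusted p = 0.236), and its sign turned after median-ratio scaling. Replication-dependent histones also had their smallest paired median in S3, but their next smallest was in S2. Their paired medians were 0.84 in G1, 0.69 in S1, 0.23 in S2, -0.10 in S3, 0.42 in S4 and 0.66 in G2. Of 63 listed, 51 were tested, 30 were called higher and 1 lower, with a median of 0.47, and 6 and 5 after median-ratio scaling, median 0.02. Histone genes are near-identical copies whose reads the authors' counting could split, so single members are not given. A test of whether the replicate difference changed steadily from G1 to G2 called no gene with limma (733 at an unadjusted p under 0.05), and voom on recovered reads called 16.

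**Figure D4:**
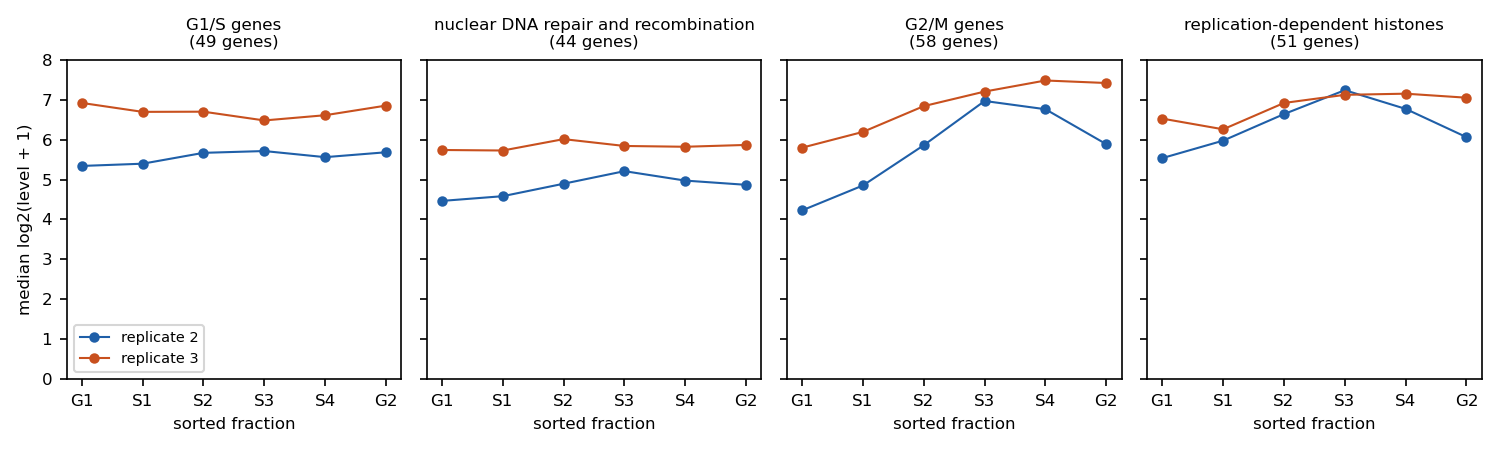
Median log2(level + 1) of 4 gene lists (y axis) in the 6 sorted fractions (x axis), one point per library, blue for replicate 2 and orange for replicate 3. G1/S, DNA repair and G2/M lists lay higher in replicate 3 in every fraction, the G2/M list with a median paired difference of 1.56 in G1 and 0.19 in S3, and the histone list crossed in S3.

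An E2F site (TTTGGCGC, TTTCCCGC, TTTCGCGC or TTTGCCGC, either strand) was present in 16 of 41 promoters of the G1/S list (39.02%), in 2 of 39 of the repair list (5.13%), and in 4.83% of all tested promoters. Genes at least 2-fold higher without overlap held it in 41 of 624 promoters (6.57%). In the G2/M list, 35 of 48 promoters held the CCAAT box (72.9%, against 36.2% of all) and 24 the cell cycle homology region TTTGAA or TTCGAA (50%, against 9.90%). PCNA is printed as the G1/S gene with the largest difference among those with a site, shown in capitals as it reads on the gene's strand, from the minus strand of chromosome 20, chr20:5126623-5126872.
PCNA: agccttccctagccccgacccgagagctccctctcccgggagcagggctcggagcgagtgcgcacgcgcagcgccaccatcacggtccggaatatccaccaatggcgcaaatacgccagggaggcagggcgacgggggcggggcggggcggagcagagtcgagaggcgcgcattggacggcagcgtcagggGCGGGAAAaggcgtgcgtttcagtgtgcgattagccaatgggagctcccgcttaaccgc

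Chaperones of the heat shock response were higher in replicate 3. Of 25 listed genes 19 were tested; 18 were called higher and none lower, with a median of 0.82, and after median-ratio scaling 13 were higher and 1 lower, with a median of 0.36. HSPA8, the constitutive HSP70, ran from 337 to 484 (median 355) in replicate 2 and from 702 to 1349 (median 806) in replicate 3, a difference of 1.24 (SE 0.10, adjusted p = 5.95e-07). HSPH1, the exchange factor HSP105, ran from 26.2 to 40.3 (median 30.1) in replicate 2 and from 92.4 to 151 (median 99.2) in replicate 3, a difference of 1.73 (SE 0.09, adjusted p = 1.88e-08). HSP90AA1, the inducible HSP90, ran from 400.5 to 535 (median 484) in replicate 2 and from 809 to 1181 (median 912) in replicate 3, a difference of 0.98 (SE 0.08, adjusted p = 7.35e-07). In each the groups did not overlap. HSPA4L, a relative of HSP105, differed by 1.35 (SE 0.11, adjusted p = 9.4e-07). HSP90AB1, the constitutive HSP90, ran from 1588 to 1892 (median 1790.5) in replicate 2 and from 1958 to 2506 (median 2192) in replicate 3, a difference of 0.29 (SE 0.08, adjusted p = 0.00448) that turned to -0.16 after median-ratio scaling. DNAJB6, an HSP40 that blocks aggregation, was the member not called (95% confidence interval -0.23 to 0.22).

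Metallothioneins, small proteins that bind zinc and copper and that MTF1 induces, were higher too. The list also holds MTF1 and the zinc exporter SLC30A1. Of its 11 genes 9 were tested and 8 called higher, none lower, with a median of 1.19, and after median-ratio scaling 7 were higher and none lower, with a median of 0.82. MT2A ran from 37.01 to 54.7 (median 47.02) in replicate 2 and from 69.5 to 175 (median 106) in replicate 3, a difference of 1.25 (SE 0.14, adjusted p = 8.49e-06). MT1E ran from 24.3 to 41.1 (median 31.1) in replicate 2 and from 73.4 to 123 (median 85.8) in replicate 3, a difference of 1.47 (SE 0.14, adjusted p = 2.07e-06), and MT1F ran from 2.55 to 9.78 (median 6.63) in replicate 2 and from 20.6 to 33.4 (median 25.8) in replicate 3, a difference of 1.99 (SE 0.19, adjusted p = 2.28e-06). These 3 genes did not overlap between the numbers, whereas MT1X, which differed by 2.10 (SE 0.22, adjusted p = 4.14e-06), did. The copies are close in sequence, so reads may have been split among them. SLC30A1, which is no copy of them, ran from 35.2 to 48.01 (median 40.7) in replicate 2 and from 62.2 to 86.7 (median 74.1) in replicate 3, a difference of 0.87 (SE 0.10, adjusted p = 6.24e-06).

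The heat shock element (GAA, TTC and GAA, each 2 bases apart) was found on either strand in 3 of 18 promoters of the heat shock list (16.7%) and in 0.26% of all tested promoters. The metal response core TGCGCNC or TGCACNC was found in 3 of the 4 promoters with an entry from the metallothionein list, too few of the list's 9 tested genes for a share, and in 33.5% of all. HSPA8 and MT1X are printed as the members of each list with the largest difference and a match, with matches in capitals: HSPA8 has 2 elements (chromosome 11, minus strand, chr11:123062137-123062386, a window before a start that lies inside the outer bounds of the gene, 123057489 to 123062462) and MT1X has 4 cores (chromosome 16, plus strand, chr16:56682220-56682469).
HSPA8: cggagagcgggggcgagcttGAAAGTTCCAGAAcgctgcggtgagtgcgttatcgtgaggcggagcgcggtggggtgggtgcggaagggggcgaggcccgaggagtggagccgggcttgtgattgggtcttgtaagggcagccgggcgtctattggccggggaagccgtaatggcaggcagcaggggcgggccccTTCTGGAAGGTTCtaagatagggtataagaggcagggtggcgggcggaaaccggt
MT1X: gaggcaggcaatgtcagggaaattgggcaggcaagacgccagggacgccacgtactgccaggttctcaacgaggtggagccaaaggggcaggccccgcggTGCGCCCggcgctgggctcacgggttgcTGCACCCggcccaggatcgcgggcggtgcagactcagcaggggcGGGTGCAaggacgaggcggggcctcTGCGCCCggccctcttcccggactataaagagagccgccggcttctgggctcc

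Targets of BMP, TGF-beta and YAP split in direction. Of 28 listed genes 25 were tested; 17 were called higher and 3 lower, with a median of 0.40, close to that of all genes, and after median-ratio scaling 7 were higher and 6 lower, with a median of -0.06. ID1, an inhibitor of differentiation factors that BMP raises, ran from 118 to 206 (median 171) in replicate 2 and from 540.5 to 999.6 (median 672) in replicate 3, a difference of 2.10 (SE 0.08, adjusted p = 1.32e-09). Its relative ID2 differed by 1.72 (SE 0.08, adjusted p = 1.51e-08). SMAD7 and SMAD6, the inhibitory SMADs that BMP and TGF-beta induce as brakes, differed by 1.81 ± 0.10 (SE) and 1.42 ± 0.12 (SE). ANKRD1, a YAP target, ran from 10.8 to 29.3 (median 23.6) in replicate 2 and from 69.7 to 164 (median 112) in replicate 3, a difference of 2.32 (SE 0.16, adjusted p = 2.46e-07), and the matrix glycoprotein THBS1 differed by 2.02 (SE 0.10, adjusted p = 1.51e-08). CCN2, a matricellular protein and YAP target, moved the other way and ran from 907 to 1237 (median 1014) in replicate 2 and from 458 to 832 (median 561) in replicate 3, a difference of -0.79 (SE 0.08, adjusted p = 4.7e-06). SKI, a repressor of SMADs, was also called lower, at -0.75 ± 0.10 (SE).

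Immediate early genes, which respond within minutes to stimulation, also split. Of 41 listed, 31 were tested; 12 were called higher and 11 lower, with a median of 0.14 that came to -0.31 after median-ratio scaling, where 9 were higher and 14 lower. FOS, a subunit of AP-1, ran from 71.5 to 106 (median 86.2) in replicate 2 and from 9.63 to 17.6 (median 13.1) in replicate 3, a difference of -2.63 (SE 0.15, adjusted p = 4.3e-08), and its relative FOSB ran from 46.04 to 65.6 (median 56.3) in replicate 2 and from 7.93 to 15.3 (median 11.3) in replicate 3, a difference of -2.24 (SE 0.13, adjusted p = 9.68e-08). EGR1, a zinc finger factor of the same response, differed by -1.08 (SE 0.13, adjusted p = 9.11e-06). JUND, the constitutive JUN, ran from 254 to 380.4 (median 323) in replicate 2 and from 172 to 256 (median 189.5) in replicate 3, a difference of -0.66 (SE 0.07, adjusted p = 5.34e-06). Opposite to these, the glucocorticoid-induced kinase SGK1 differed by 1.63 (SE 0.12, adjusted p = 3.6e-07), and the zinc finger factor KLF6 by 1.13 (SE 0.10, adjusted p = 1.47e-06). The largest rise of the list, 2.02, was that of BTG2, which is also on the p53 list and is described there. MYC, the growth-promoting transcription factor, ran from 115 to 168 (median 151) in replicate 2 and from 96.05 to 262 (median 192) in replicate 3, a difference of 0.34 (SE 0.12, adjusted p = 0.0226) that turned to -0.12 after median-ratio scaling.

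Acute phase and NF-kappaB genes had 1 member with a very large rise, HAMP, and few others. Of 33 listed genes 20 were tested; 10 were called higher and 1 lower, with a median of 0.27, below that of all genes, and after median-ratio scaling 6 were higher and 7 lower, with a median of -0.17. SAA4, the constitutive serum amyloid A, ran from 0 to 13.5 (median 4.84) in replicate 2 and from 21.8 to 41.7 (median 28.1) in replicate 3, a difference of 2.55 (SE 0.38, adjusted p = 6.49e-05), with the S1 library of replicate 2 at 0. The abundant acute phase proteins ORM1 and ORM2, copies of orosomucoid that may share reads, were not called. ORM1 ran from 827 to 1252 (median 1184) in replicate 2 and from 536 to 1605 (median 1283) in replicate 3, a difference of -0.07 (SE 0.20, adjusted p = 0.773). ORM2 differed by 0.02 (SE 0.12, adjusted p = 0.918). FGB, the fibrinogen beta chain, ran from 599 to 850.5 (median 764) in replicate 2 and from 581 to 878 (median 662) in replicate 3, a difference of -0.11 (SE 0.08, adjusted p = 0.248). ICAM1, an adhesion molecule, was the 1 member called lower, at -0.86 (SE 0.10, adjusted p = 6.55e-06).

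Among iron and heme genes, of which 26 of 27 were tested, 14 were called higher and 2 lower, with a median of 0.28, and 8 and 7 after median-ratio scaling, median -0.15. Besides HAMP, the heme-degrading enzyme HMOX1 differed by 1.26 (SE 0.14, adjusted p = 7.06e-06) and the iron exporter SLC40A1, the target of hepcidin, by 1.18 (SE 0.15, adjusted p = 1.61e-05). The ferritin light chain FTL differed by 0.28 (SE 0.09, adjusted p = 0.00878), with -0.17 after median-ratio scaling.

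Genes of the amino acid response, which ATF4 raises when amino acids are short, were more often lower. Of 30 listed genes 25 were tested; 6 were called higher and 11 lower, with a median of -0.16, and after median-ratio scaling none was higher and 19 were lower, with a median of -0.61. ASNS, asparagine synthetase, ran from 11.4 to 26.4 (median 17.3) in replicate 2 and from 4.45 to 10.6 (median 7.17) in replicate 3, a difference of -1.22 (SE 0.20, adjusted p = 0.000138). PCK2, the mitochondrial phosphoenolpyruvate carboxykinase, ran from 53.1 to 181 (median 87.1) in replicate 2 and from 34.9 to 67.6 (median 35.2) in replicate 3, a difference of -1.08 (SE 0.18, adjusted p = 0.000151), with overlapping groups. SLC7A11, the cystine importer, ran from 39.9 to 70.8 (median 59.8) in replicate 2 and from 23.6 to 32.5 (median 28.2) in replicate 3, a difference of -0.99 (SE 0.12, adjusted p = 1.35e-05). SLC38A2, a neutral amino acid importer, ran from 726 to 863 (median 804) in replicate 2 and from 585 to 741 (median 636) in replicate 3, a difference of -0.32 (SE 0.08, adjusted p = 0.00346). ATF4 itself ran from 519 to 815 (median 699) in replicate 2 and from 627 to 872 (median 822) in replicate 3, a difference of 0.22 (SE 0.08, adjusted p = 0.0254) that turned to -0.24 after median-ratio scaling.

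All 13 mitochondrially encoded mRNAs were called lower, in both scalings, with a median of -1.46 and of -1.92 after median-ratio scaling. Quantile normalization shrank this median to -0.31, with MT-CO1 at -0.10 (adjusted p = 0.597) and MT-CO3 at -0.10 (adjusted p = 0.568) by limma, no longer called. On the protein-coding scale the paired median was -1.22 in G1, -0.49 in S1, -1.35 in S2, -1.54 in S3, -1.72 in S4 and -2.49 in G2. MT-CO1, of cytochrome c oxidase, ran from 41736 to 58326 (median 47694) in replicate 2 and from 9079 to 43166 (median 18264) in replicate 3, a difference of -1.38 (SE 0.21, adjusted p = 7.36e-05), and overlapped between the numbers through the S1 library of replicate 3. MT-CO3, of the same complex, ran from 26115 to 35525 (median 29272) in replicate 2 and from 5912 to 27203 (median 12159) in replicate 3, a difference of -1.28 (SE 0.20, adjusted p = 9.82e-05). MT-ND4, of complex I, ran from 22594 to 35283 (median 27263) in replicate 2 and from 4355 to 20633 (median 8253) in replicate 3, a difference of -1.71 (SE 0.20, adjusted p = 8.89e-06), with no overlap. MT-ND5 and MT-ND4L, also of complex I, differed by -1.73 ± 0.19 (SE) and -1.85 ± 0.18 (SE). In bulk replicates 1 to 3 these mRNAs took 15.9 to 16.8% of protein-coding TPM. The nuclear genes of the respiratory chain mostly did not follow on the protein-coding scale: of 79 listed 71 were tested, 39 were called higher and 5 lower, with a median of 0.37, and 7 and 20 after median-ratio scaling, with a median of -0.08. Among the 5 lower was the list's member of highest mean level and largest difference, CYC1, cytochrome c1 of complex III. It ran from 596 to 853 (median 794) in replicate 2 and from 194 to 275 (median 242) in replicate 3, a difference of -1.64 (SE 0.07, adjusted p = 8.78e-09), with no overlap. Mitochondrial ribosomal proteins, 73 tested of 78, had 63 called higher and 1 lower, with a median of 0.61, and 25 and 5 after median-ratio scaling, median 0.16.

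Cytosolic ribosomal proteins lay below the median of all genes in both scalings. Of 79 listed genes 72 were tested; 33 were called higher and 8 lower, with a median of 0.15, whereas after median-ratio scaling 8 were higher and 44 lower, with a median of -0.30. RPS12 ran from 818 to 1284 (median 977) in replicate 2 and from 1031 to 1529 (median 1291) in replicate 3, a difference of 0.39 (SE 0.08, adjusted p = 0.00106). RPS21 ran from 1095 to 1260.5 (median 1186) in replicate 2 and from 800.2 to 1088 (median 866) in replicate 3, a difference of -0.39 (SE 0.08, adjusted p = 0.0011). RPL10A, of the large subunit, differed by 0.61 (SE 0.08, adjusted p = 2e-05). The largest rises were in RPL36A, RPL17 and RPS10, at 1.08 ± 0.13, 0.97 ± 0.12 and 0.88 ± 0.13 (SE), genes with many pseudogenes and read-through neighbours whose reads could have been split. Factors that build ribosomes stood higher: of 38 listed 37 were tested, 36 were called higher and none lower, with a median of 0.77, and 21 and 1 after median-ratio scaling, median 0.32. Proteasome subunits, 30 tested of 32, had 28 called higher and none lower, with a median of 0.73, and 17 and 3 after median-ratio scaling, median 0.28. Translation factors had a median of 0.51 (28 higher and 1 lower of 36, then 14 and 9 after median-ratio scaling, median 0.06). For the cytosolic chaperonin it was 0.65 (11 higher and 0 lower of 12, then 6 and 0 after median-ratio scaling, median 0.19). EEF1A1, the factor that brings aminoacyl-tRNA to the ribosome, ran from 341 to 431 (median 372) in replicate 2 and from 373 to 477 (median 430.0) in replicate 3, a difference of 0.19 (SE 0.07, adjusted p = 0.0267) that turned to -0.27 after median-ratio scaling.

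Structural and nuclear gene groups had medians on both sides of that of all genes, and for several the balance of calls turned with the scaling. Centrosome and cilium genes had a median of 0.74 (53 higher and 0 lower of 66, then 33 and 7 after median-ratio scaling, median 0.29). For the nuclear pore and lamina it was 0.68 (35 higher and 1 lower of 40, then 19 and 5 after median-ratio scaling, median 0.23). Splicing factors had a median of 0.47 (55 higher and 1 lower of 62, then 15 and 10 after median-ratio scaling, median 0.01). For RNA polymerase II and Mediator it was 0.49 (36 higher and 0 lower of 46, then 13 and 7 after median-ratio scaling, median 0.04). Zinc finger genes had a median of 0.52 (259 higher and 6 lower of 381, then 83 and 52 after median-ratio scaling, median 0.07). In 3 groups the calls were mostly higher on the protein-coding scale and mostly lower after median-ratio scaling. Chromatin regulators had a median of 0.30 (37 higher and 3 lower of 63, then 10 and 26 after median-ratio scaling, median -0.16). Cytoskeleton genes had a median of 0.33 (19 higher and 5 lower of 32, then 3 and 10 after median-ratio scaling, median -0.12). The secretory pathway had a median of 0.31 (31 higher and 2 lower of 50, then 4 and 20 after median-ratio scaling, median -0.14). Matrix and adhesion genes lay lower, at -0.04 (10 higher and 13 lower of 30) and -0.49 after median-ratio scaling (1 and 19), with fibronectin, FN1, at -0.94 ± 0.09 (SE) and osteopontin, SPP1, a secreted adhesive protein, at 1.94 ± 0.09 (SE). ACTB, cytoplasmic actin, ran from 643 to 761 (median 693) in replicate 2 and from 675 to 761 (median 702) in replicate 3, a difference of 0.02 (SE 0.07, adjusted p = 0.768) that turned to -0.43 after median-ratio scaling. Of the genes whose 95% confidence interval lay within -0.5 to 0.5, the 5 with the highest mean level were CALR, a calcium-binding chaperone (-0.11 to 0.25), SCD, the stearoyl-CoA desaturase (-0.36 to -0.02), PDIA4, a disulfide isomerase (-0.45 to -0.12), FASN, fatty acid synthase (0.05 to 0.38), and HSP90AB1 (0.12 to 0.46). All but CALR were called on the protein-coding scale, and CALR, FASN and HSP90AB1 had the opposite sign after median-ratio scaling.

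**Figure D5:**
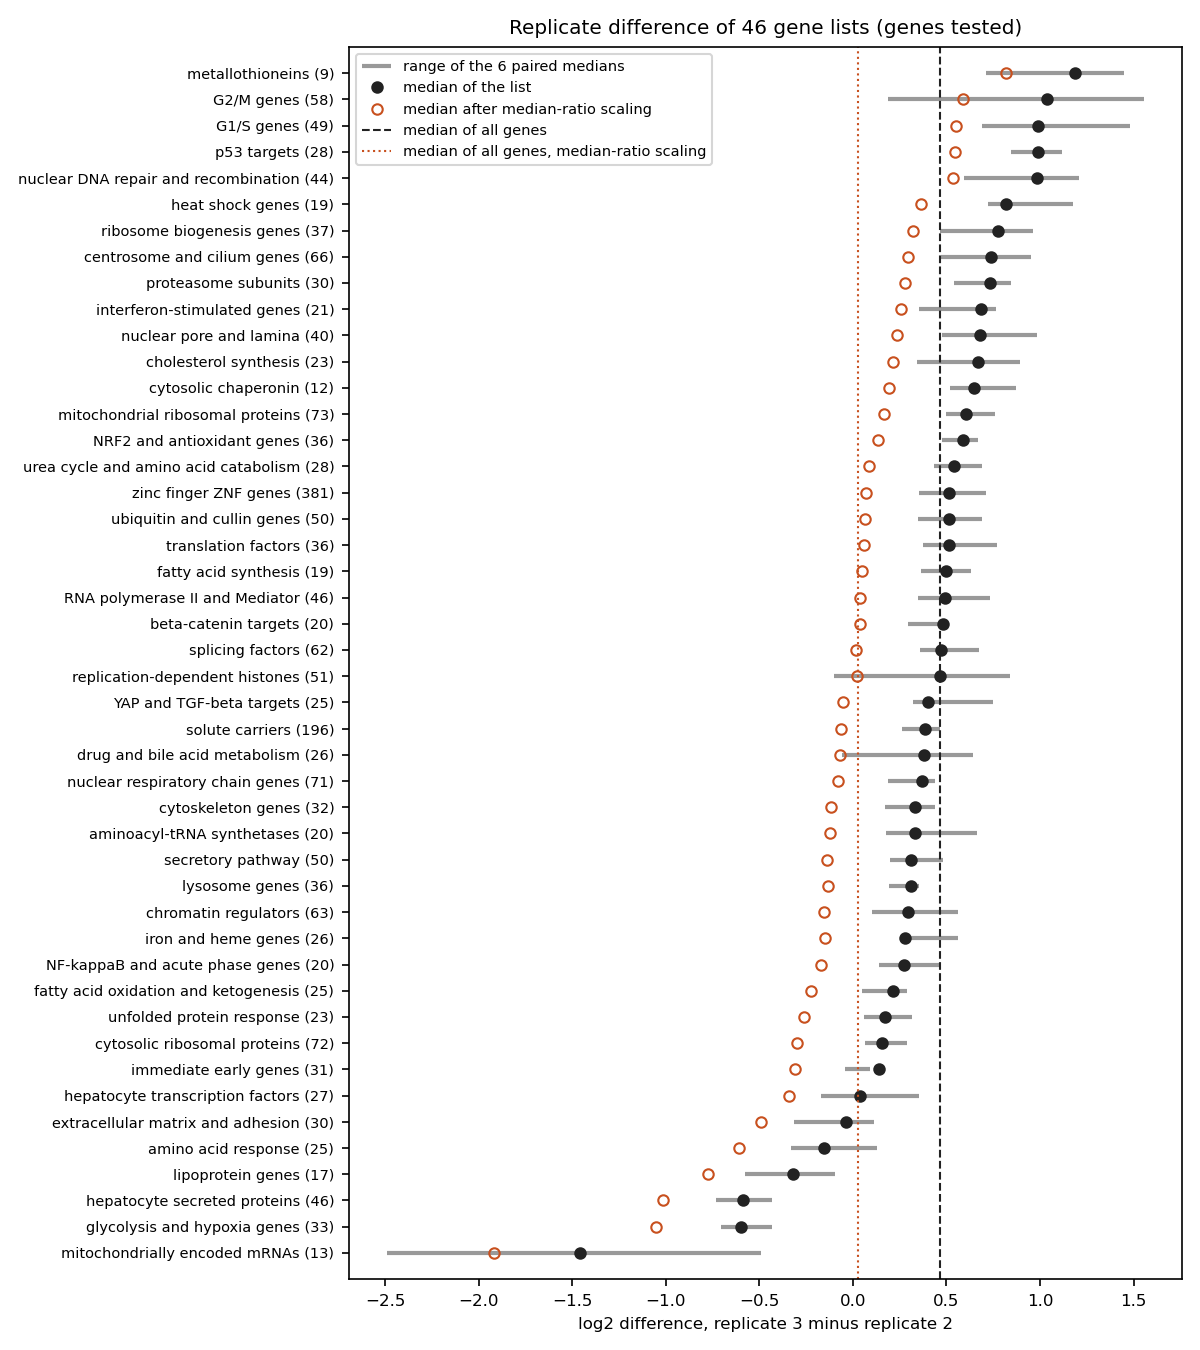
Log2 difference between replicate 3 and replicate 2 (x axis) for 46 gene lists (y axis, with the number of genes tested), as the list's median (black points), the range of its medians over the 6 fraction pairs (grey bars) and its median after median-ratio scaling (open orange points); the dashed and dotted lines mark the medians of all genes, 0.47 and 0.02. Metallothioneins, G2/M, G1/S, p53 and DNA repair lists lie at the top, from 1.19 to 0.98, and lipoprotein, secreted protein, glycolysis and mitochondrial mRNA lists at the bottom, from -0.32 to -1.46.

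Gene properties other than function went with small differences. Genes were cut into 5 groups of equal size by each property, and none of the 3 gave a steady trend. From the shortest to the longest summed exon length the medians were 0.44, 0.51, 0.50, 0.46 and 0.43. From the lowest to the highest promoter G plus C content they were 0.46, 0.55, 0.52, 0.46 and 0.38. From the lowest to the highest mean level they were 0.41, 0.50, 0.52, 0.48 and 0.40, and the share called higher was 46.04% in the lowest group, 73.5% in the middle group and 66.4% in the highest. In the group of highest level 13.7% of genes were called lower, against 7.31% in the lowest. By symbol family, with at least 15 genes tested, the highest medians were those of KIF kinesins (0.99, 21 higher and 1 lower of 28), RAD genes (0.89, 14 of 17 higher) and NUP nucleoporins (0.85, 21 of 22 higher), and the lowest were those of CD antigens (0.01, 8 higher and 3 lower of 20) and NR nuclear receptors (0.17, 9 and 2 of 19).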

How the data were processed

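The deposited values, 1 file per RNA library, are log2(TPM + 1) for 78932 gene identifiers, a unit read from the values, since each back-transformed file sums to 1000000. Per the submitters' processing notes the tools were HISAT2, BWA, cutadapt, SAMtools and Trimmomatic and the build hg38, with no role stated; for the counting program and annotation these sources give no name, so reads of overlapping or near-identical genes may be split in a way that is not known, and the stranded kits do not settle whether counting used strand. Per the labels, about 40 M reads per sorted library and 20 M per bulk library were planned, at 150 bp. The smallest TPM steps gave reads per gene: 99.3% of 39380 low-count gene lengths came out whole within 0.01 bases, and the totals give the depths in the text.

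Values were back-transformed and kept for 19350 protein-coding identifiers. Each library was rescaled to 1000000, and genes with a mean of at least 5 over the 12 libraries were kept. The test was limma 3.58.1 (R 4.3.3, trend) on log2(level + 1), with fraction and replicate number as terms, 5 residual degrees of freedom and Benjamini-Hochberg adjustment, checked on simulated data. A fold change on this scale understates that of low genes. Libraries of the 2 numbers were paired by fraction: correlations of the 6 fractions' paired differences across genes ran from 0.58 to 0.70, a property of a shift shared by all fractions. Alternatives were pseudocounts of 0.1 and 5, other filters, 3 other scalings, values as deposited, no trend, array weights, no pairing, voom on recovered reads, and each pair left out; voom with median-ratio scaling was added after seeing the data. Intervals cover the spread between fractions only.

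The members, the 46 gene lists and the 5 marker lists were chosen with earlier results of these data known, so no p-value is given over a list. Genes named are the 12 largest rises and 12 largest falls without overlap, up to 3 highest and 3 most changed members of each list, a set of 11 reference genes and 5 abundant genes of narrow interval. Further list members were named after their values were seen: ADM, BBC3, C5, CEBPA, CP, DNAJB6, EGLN3, EGR1, ENO2, FAM210B, FDXR, ICAM1, ID2, KLF6, PDK1, PFKFB4, SGK1, SKI, SLC40A1, SMAD6, SMAD7, THBS1 and TP53I3. Histone members were left out of the text as near-identical copies. Not every gene the rule takes is described, and some results are not reported here. Coordinates and promoter sequences are from RefSeq. The Repli-seq samples were not used here.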

Additional observations from a re-analysis of the deposited data

Results flagged for a closer look

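The S4 library of replicate 3 stood apart from the other 5 of its number in depth. It held 18485400 recovered reads, and 14099900 of protein-coding genes, against 6205400 to 9309610 and 4585600 to 6657270 in the others, a gap beyond the 95% limit of Dixon's test for 6 values. Of 26 groups screened 2 were flagged. Both measures come from the same library, and chance flags about 1 in 20 groups. Without the S4 pair, 6555 genes were called higher and 753 lower, against 6915 and 844 with it.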

How the results depend on the processing

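Direction and counts depended mainly on the scaling. Under values rescaled to a median of ratios, 2665 genes were called higher and 2620 lower, and 91 and 382 at least 2-fold without overlap. Quantile normalization gave 2843, 2418, 121 and 321, and rescaling without mitochondrial and histone mRNAs gave 4591, 1593, 255 and 223. TPM as deposited gave 3681 higher and 1154 lower, 120 and 148 at least 2-fold without overlap, and a steady change along the cycle in 198 genes. By voom on recovered reads 4934 were higher and 1591 lower, 299 and 217 at least 2-fold without overlap, and 16 changed along the cycle. The same with median-ratio scaling, added after seeing the data, gave 2761, 2747, 107 and 406, and 15. A pseudocount of 5 left 436 at least 2-fold higher, and a mean of at least 20 left 80 at least 2-fold lower; both follow from their construction. Named genes that changed sign are given here as log2 differences. Several were called on the protein-coding scale, among them ALB, AFP, APOA1 and APOA2 at -0.82, -0.78, -0.45 and -0.51. Under median-ratio scaling they were ACTB -0.43, EEF1A1 -0.27, MYC -0.12, MKI67 -0.27, CALR -0.39, HSP90AB1 -0.16, FASN -0.24, RPS12 -0.066, ATF4 -0.24, GDF15 -0.31, TNFRSF10B -0.042 and ORM2 -0.44. Under quantile normalization they were ALB 0.39, AFP 0.67, APOA1 0.79, ACTB -0.054, EEF1A1 -0.010, MYC -0.029, MKI67 -0.15, SCD 0.14, APOH 0.42, APOA2 0.056, GDF15 -0.019 and ORM2 -0.072. Under rescaling without mitochondrial and histone mRNAs they were ACTB -0.23, EEF1A1 -0.068, MKI67 -0.072, CALR -0.19, FASN -0.044, ATF4 -0.038, GDF15 -0.11 and ORM2 -0.24. Under TPM as deposited they were ACTB -0.21, EEF1A1 -0.049, MKI67 -0.053, CALR -0.17, FASN -0.026, ATF4 -0.020, GDF15 -0.092 and ORM2 -0.22. Under voom they were ACTB -0.21, EEF1A1 -0.042, MKI67 -0.046, CALR -0.16, FASN -0.018, ATF4 -0.015, GDF15 -0.077 and ORM2 -0.21. Under voom with median-ratio scaling they were ACTB -0.43, EEF1A1 -0.27, MYC -0.11, MKI67 -0.27, CALR -0.39, HSP90AB1 -0.16, FASN -0.25, RPS12 -0.069, ATF4 -0.24, GDF15 -0.30, TNFRSF10B -0.042 and ORM2 -0.43. With a pair left out the sign turned for ORM1 0.072 without S4 pair, ORM1 0.16 without G2 pair, ORM2 -0.012 without G1 pair, ORM2 -0.078 without S1 pair, ORM2 -0.058 without S3 pair. Leaving out each pair gave 6430 to 6816 genes higher and 753 to 821 lower, 698 to 888 and 127 to 147 at least 2-fold without overlap, and 0 to 10 changing along the cycle, the most without G1. Without the pairing by fraction (no replicate block), 6341 were higher and 710 lower. Over 103 named genes and 20 alternatives, 1902 of 2041 values kept direction and call, 64 lost the call, 10 gained it and 65 changed sign. The cause of these changes was not tested. Depth, 6129030 reads in the shallowest sorted library, limits calls among low genes.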

Other observations

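Cholesterol synthesis, controlled by SREBP2, had more genes called higher than lower in replicate 3, as did all genes tested. Of all genes tested, 64.8% were called higher and 7.91% lower, and 25% and 24.6% after median-ratio scaling. Counts of the lists below are read beside these shares. Of 25 listed genes 23 were tested; 16 were called higher and 2 lower, with a median of 0.67, and 9 and 6 after median-ratio scaling, median 0.21. MVK, mevalonate kinase, ran from 35.3 to 50.99 (median 43.5) in replicate 2 and from 85.7 to 108 (median 98.7) in replicate 3, a difference of 1.16 (SE 0.09, adjusted p = 8.48e-07). HMGCS1, the cytosolic HMG-CoA synthase, ran from 355 to 518 (median 434) in replicate 2 and from 600.4 to 759 (median 691) in replicate 3, a difference of 0.67 (SE 0.09, adjusted p = 4.18e-05). Fatty acid synthesis had a median of 0.50 (13 higher and 1 lower of 19, then 9 and 6 after median-ratio scaling, median 0.05), with ACACA, acetyl-CoA carboxylase, at 1.01 ± 0.14 (SE). Fatty acid oxidation and ketogenesis had a median of 0.22 (12 higher and 6 lower of 25, then 1 and 12 after median-ratio scaling, median -0.23), so the balance of its calls turned with the scaling. Its carnitine palmitoyltransferase CPT1A differed by -0.77 (SE 0.13, adjusted p = 0.000145).

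Among urea cycle and amino acid breakdown genes (28 of 32 tested), 21 were called higher and 2 lower, with a median of 0.54, and 10 and 6 after median-ratio scaling, median 0.09. ARG1, liver arginase, ran from 21.5 to 37 (median 23.5) in replicate 2 and from 3.65 to 10.01 (median 4.84) in replicate 3, a difference of -2.10 (SE 0.19, adjusted p = 1.79e-06), while NAGS, which makes the activator of the cycle, differed by 1.46 (SE 0.22, adjusted p = 6.02e-05). NRF2 and antioxidant genes (36 of 37 tested) had 29 higher and 1 lower, with a median of 0.59, and 11 and 6 after median-ratio scaling, median 0.14. GSTA1, a glutathione transferase, ran from 21.1 to 33.01 (median 27.5) in replicate 2 and from 58.5 to 117 (median 82.1) in replicate 3, a difference of 1.60 (SE 0.13, adjusted p = 7.5e-07), though it may share reads with its copy GSTA2 (1.71 ± 0.30, SE). Of 21 interferon-stimulated genes tested of 42, 13 were called higher and none lower, with a median of 0.69, and 6 and 4 after median-ratio scaling, median 0.26. PARP14, an ADP-ribosyltransferase of that response, ran from 23.1 to 35.1 (median 27) in replicate 2 and from 59.5 to 78.96 (median 69.3) in replicate 3, a difference of 1.29 (SE 0.10, adjusted p = 5.74e-07). The drug and bile acid list had a median of 0.38 (13 higher and 7 lower of 26, then 6 and 9 after median-ratio scaling, median -0.07). CYP8B1, which makes cholic acid, ran from 5.28 to 13.6 (median 8.67) in replicate 2 and from 1.74 to 4.41 (median 1.99) in replicate 3, a difference of -1.50 (SE 0.23, adjusted p = 7.3e-05). SLC51A, a bile acid exporter, differed by -1.66 (SE 0.15, adjusted p = 1.85e-06).

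Genes of the unfolded protein response split. Of 24 listed 23 were tested; 11 were called higher and 5 lower, with a median of 0.17, and 3 and 11 after median-ratio scaling, median -0.26. CRELD2, an endoplasmic reticulum chaperone partner, ran from 35.7 to 44.5 (median 39.8) in replicate 2 and from 77.7 to 126 (median 106) in replicate 3, a difference of 1.34 (SE 0.10, adjusted p = 3.47e-07), whereas the disulfide isomerase PDIA4 ran from 1273 to 1476 (median 1329.8) in replicate 2 and from 1035 to 1236 (median 1085) in replicate 3, a difference of -0.29 (SE 0.08, adjusted p = 0.00489). Solute carriers had a median of 0.38 (103 higher and 34 lower of 196, then 36 and 67 after median-ratio scaling, median -0.06), so the balance of their calls turned as well. SLC6A8, the creatine transporter, ran from 265 to 376 (median 329) in replicate 2 and from 36.6 to 79.9 (median 67.99) in replicate 3, a difference of -2.36 (SE 0.12, adjusted p = 2.02e-08). Lysosome genes had a median of 0.31 (21 higher and 5 lower of 36, then 8 and 15 after median-ratio scaling, median -0.13), with the abundant PSAP, the saposin precursor, at -0.69 ± 0.09 (SE). Targets of beta-catenin, which is mutated to a stable form in HepG2, had a median of 0.48 (17 higher and 1 lower of 20, then 4 and 3 after median-ratio scaling, median 0.04), with NOTUM, a Wnt deacylase, at -0.15 ± 0.09 (SE). Aminoacyl-tRNA synthetases had a median of 0.33 (12 higher and 0 lower of 20, then 4 and 8 after median-ratio scaling, median -0.12). Ubiquitin and cullin genes had one of 0.51 (34 higher and 2 lower of 50, then 12 and 12 after median-ratio scaling, median 0.07).

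By chromosome the median difference was lowest on chromosome 19 (0.26, 376 higher and 84 lower of 800 genes tested) and 22 (0.30, 134 and 24 of 258) and highest on 13 (0.59, 134 and 15 of 178). With genes cut into 5 equal groups by the ratio of bulk to sorted level, the highest group had a median of 0.38, against 0.49 in the lowest, and these descriptions carry no test.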
